A study of Mus musculus with 2 samples.

Results

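The miRNA families miR-297, miR-466, miR-467 and miR-669 are groups of short, repeat-rich microRNA genes, most of which lie in 1 intron of the mouse gene Sfmbt2. Members were chosen by name alone, as every gene of the tables whose annotated symbol is Mir297, Mir466, Mir467 or Mir669 with or without a suffix; the rule itself uses no measured value. The rule found 69 of the 1973 miRNA genes measured. Of these, 25 belonged to miR-466, 21 to miR-669, 17 to miR-467 and 6 to miR-297. By position, 59 lay inside Sfmbt2 on chromosome 2 and 10 lay on other chromosomes.

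The counts came from microRNA sequencing, which reads the small RNAs of a total RNA sample, in the neural tube, the embryonic tissue that forms the brain and spinal cord. Both libraries came from B6NCrl mouse embryos at embryonic day 14.5 and made up 1 group, with no treatment or altered gene named in the labels. Replicate 1 came from pup 1 of dam 1 and replicate 2 from pup 1 of dam 2. The labels call each sample a single neural tube but give its sex as pooled male and female.

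Sfmbt2 encodes a Polycomb group protein. The miRNA cluster in its intron is found in rodents, arose by repeated local duplication and carries many near-identical hairpins, the folded precursors from which a mature miRNA is cut. In early mouse embryos and in placenta the host gene is imprinted and read mainly from the paternal copy, and the cluster is known best for its abundance in placenta and embryonic stem cells. A mature miRNA finds its messenger RNA targets mainly through its seed, the bases that follow its first base.

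The mature sequences below show, for members outside Sfmbt2, what the family names stand for at the level of bases and how repetitive they are. They are given 5′ to 3′ from RefSeq on build GRCm38.p6, with the seed (bases 2 to 8) in capitals, and 9 of the 69 members matched an entry by symbol, 8 of them with a mature sequence. All 9 lie outside Sfmbt2 and had 1 count in all. The genomic positions are those of the mature miRNA.
Mir466i (miR-466i-3p, chr13:17747552-17747573, + strand): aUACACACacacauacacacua
Mir466j (chr10:60960802-60960824, + strand): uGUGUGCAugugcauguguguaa
Mir466k (chr3:85467396-85467418, + strand): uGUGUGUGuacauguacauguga
Mir466q (chr3:28419988-28420007, + strand): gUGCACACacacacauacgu
Mir467f (chr11:69635419-69635439, − strand): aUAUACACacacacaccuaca
Mir467g (chr5:34732872-34732892, − strand): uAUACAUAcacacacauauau
Mir467h (chr9:115381898-115381919, + strand): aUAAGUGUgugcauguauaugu
Mir669n (chr3:115979905-115979924, + strand): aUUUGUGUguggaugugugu

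The 8 seeds printed here all differed from each other, also between members with the same family number. Each gene is shown with 1 mature sequence. Whether other mature sequences of these genes share a seed was not measured. Their common feature was an alternating repeat. A run of alternating U and G, or of alternating A and C, at least 8 bases long stood in 6 of the 8 mature sequences. The same run was found in 13 of 1738 mature mouse miRNAs of the table (0.748%). The longest was 12 bases, in Mir466q and in Mir467f, and the shortest of the 8 longest runs was 7 bases, in Mir466j and in Mir467h. The mature sequence of Mir467h also stood in 3 of the 2202 annotated miRNA hairpins compared, 1 of them its own, whereas each of the other 7 occurred in 1 hairpin.

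A precursor contains its mature sequence, so its longest run is at least as long. The RefSeq hairpin of Mir466k (chr3:85467377-85467498, + strand) is shown with its longest alternating run, 23 bases, in capitals.
Mir466k hairpin: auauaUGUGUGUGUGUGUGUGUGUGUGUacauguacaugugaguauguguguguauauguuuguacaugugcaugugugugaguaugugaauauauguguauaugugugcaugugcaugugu

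Across the annotated hairpins, which vary in length, 56 of 69 members (81.2%) held such a run of at least 8 bases, against 266 of 2202 hairpins of all miRNA genes (12.1%). All 17 miR-467 hairpins held one, as did 24 of 25 miR-466 hairpins and 15 of 21 miR-669 hairpins, whereas none of the 6 miR-297 hairpins did. The longest run had a median of 13 bases in the 10 hairpins outside Sfmbt2 and of 9 in the 59 inside. Each of the 9 members with 10 or more counts in both libraries held one. Their longest runs spanned 8 to 15 bases, with a median of 9, the same median as over all 69 members. Over all 69 members the longest runs spanned 6 to 28 bases, so the detected members included neither the shortest nor the longest.

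The tables held 5941830 reads in replicate 1 and 7074029 in replicate 2, of which 3172235 and 3671915 were counted on the sense strand of a miRNA gene. Levels are given as counts per 1000000 of these sense counts (CPM), with mean ± SD over n = 2 libraries. Where a gene had a count of 0, its level by reads assigned to it could still be as high as 0.946 CPM (replicate 1) or 0.817 CPM (replicate 2). This is the worth of 3 counts. Detection required 10 or more sense counts in each library. Limits and intervals cover counting error only, since no molecular identifiers are named and PCR copies are not independent molecules. They do not cover reads that aligned to several positions, which the gene rows leave out.

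Taken as a set, the families gave 9500 counts in replicate 1 and 10339 in replicate 2. These were 0.299% (exact 95% interval 0.293 to 0.306) and 0.282% (0.276 to 0.287) of the sense counts. Few genes produced them. 9 of 69 members (13.0%) were detected, 1 reached 10 counts in 1 library alone, 13 had fewer counts and 46 (66.7%) had none in either library. Over all 1973 miRNA genes, 329 (16.7%) were detected and 1295 (65.6%) had no count, so the shares among the members were near those of the tables as a whole. All 9 detected members lay inside Sfmbt2. No member had a count on the strand opposite to its gene.

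Family miR-467 carried most of the signal. Its 17 genes gave 7645 counts in replicate 1 and 8422 in replicate 2, which made 81.0% ± 0.696 of all member counts. Only 3 of them were detected, and these were also the 3 highest of the 69 members. Each is named a microRNA gene by the annotation and lies on the + strand of chromosome 2 in the intron of Sfmbt2 (mm10, equal to GRCm38).

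Mir467e (positions 10505721 to 10505807) had 2906 counts in replicate 1 and 3087 in replicate 2. Mir467d (10507630 to 10507714) had 2682 and 2906 counts. Mir467c (10473931 to 10474027) had 2056 and 2428 counts. In both libraries the order was therefore Mir467e, Mir467d, Mir467c.

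In CPM, Mir467e stood at 916 and 841 (878 ± 53.3), Mir467d at 845 and 791 (818 ± 38.2) and Mir467c at 648 and 661 (655 ± 9.27). The ranges of Mir467e and Mir467d overlapped between the libraries, while that of Mir467c lay below both. They ranked 88, 90 and 98 among the 1973 genes by mean CPM. Together the 3 genes held 80.5% of member counts in replicate 1 and 81.4% in replicate 2.

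The other 14 genes of miR-467 were almost silent in the tables. Mir467b had 1 count in each library. The 10 copies of Mir467a inside the intron, Mir467a-1 to Mir467a-10, had no count in either library. Mir467f, Mir467g and Mir467h, which lie on other chromosomes and whose mature sequences are printed above, had none either.

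Family miR-669 came second, with 1801 counts in replicate 1 and 1842 in replicate 2, or 18.4% ± 0.807 of member counts. It had the most detected genes, 5 of 21. Mir669o (10514300 to 10514395) had 824 and 764 counts, or 260 and 208 CPM (234 ± 36.5). Mir669l (10468971 to 10469068) had 598 and 677 counts, or 189 and 184 CPM (186 ± 2.93). These were followed by Mir669c (10509296 to 10509404), with 290 and 304 counts, or 91.4 and 82.8 CPM (87.1 ± 6.10). The CPM ranges of these 3 genes did not overlap, and the lowest value of Mir467c was above the highest value of Mir669o.

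The remaining detected genes of this family were low. Mir669e (10467495 to 10467613) had 59 and 74 counts, or 18.6 and 20.2 CPM (19.4 ± 1.10). Mir669h (10518155 to 10518279) had 29 and 18 counts, or 9.14 and 4.90 CPM (7.02 ± 3.0), and was the lowest of the detected members. Of the other 16, Mir669f (1 and 2 counts), Mir669a-3 (0 and 2) and Mir669m-2 (0 and 1) had some counts and 13 had none, Mir669n on chromosome 3 among them.

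The largest family, miR-466, gave the fewest counts per gene of the 3 families with a detected member. Its 25 genes summed to 47 counts in replicate 1 and 54 in replicate 2, which was 0.509% ± 0.0195 of member counts. Mir466n (10513741 to 10513834) held nearly all of them, with 42 and 46 counts, or 13.2 and 12.5 CPM (12.9 ± 0.504), and lay between Mir669e and Mir669h in level. Beyond it, 8 genes had between 1 and 3 counts over both libraries. Mir466 had 3 and 0, Mir466d 1 and 2, and Mir466b-3 had 1 in each. Mir466f-2, Mir466g, Mir466h, Mir466o and Mir466q had 0 and 1. The count of Mir466q, on chromosome 3, was the single one from the 10 members outside Sfmbt2. The other 16 genes of the family had none.

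Family miR-297 had no detected gene. Mir297a-2 (10472254 to 10472343) had 7 counts in replicate 1 and 20 in replicate 2, or 2.21 and 5.45 CPM (3.83 ± 2.29), a range that overlapped that of Mir669h. Mir297b had 0 and 1 count. The remaining 4 genes, Mir297c, Mir297a-3, Mir297a-4 and Mir297-1, had no count.

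**Figure D1:**
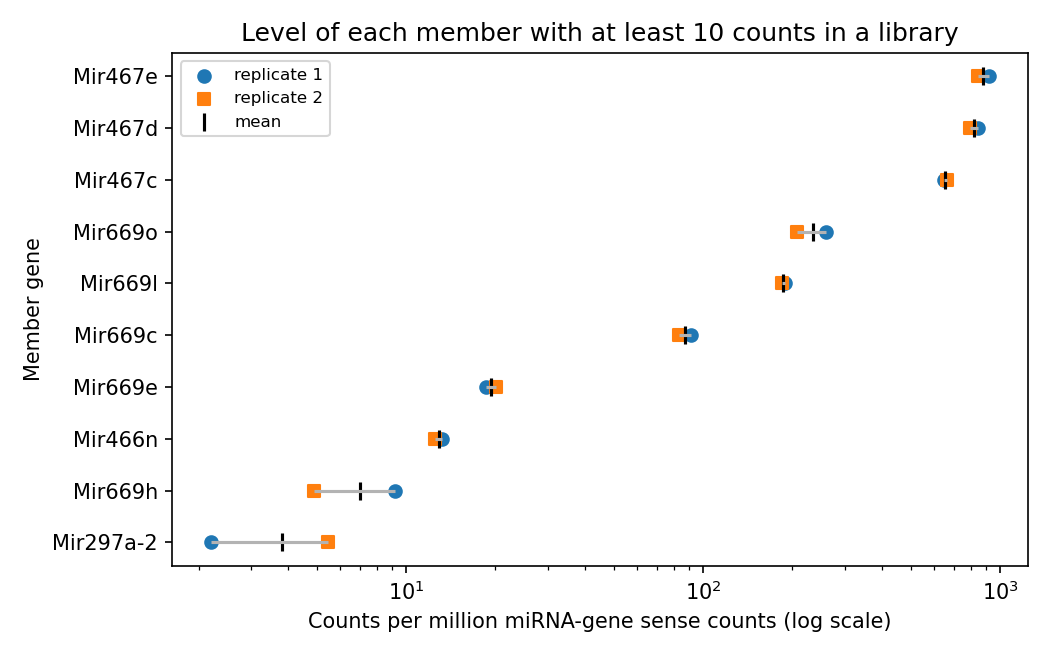
CPM (log axis) of the 10 members that reached 10 counts in either library; circles are replicate 1, squares replicate 2, black bars the mean, and grey lines join both libraries. The 3 miR-467 genes sit at the top between 648 and 916, and the libraries lie furthest apart for Mir669h and Mir297a-2.

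The plot of levels shows that most members with many counts were close between the libraries. The SD was 1.42% of the mean for Mir467c, 1.57% for Mir669l, 4.67% for Mir467d and 6.07% for Mir467e. It reached 15.6% for Mir669o. The share rose to 42.7% for Mir669h and 59.9% for Mir297a-2, where counts were fewest. Neighbours in the order of mean CPM had separate ranges from Mir467d down to Mir669h.

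Along the intron the detected genes lay towards both ends. The intron spans 62472 bases (chromosome 2, 10461473 to 10523944, + strand) and is intron 10 of 1 annotated Sfmbt2 transcript and intron 11 of another. The 59 members inside it begin 5.19 to 56.7 kb from its start. Going downstream, Mir669e (6.02 kb), Mir669l (7.50 kb) and Mir467c (12.5 kb) formed a first group. The next detected member was Mir467e at 44.2 kb, after a gap of 31.8 kb. Mir467d (46.2 kb), Mir669c (47.8 kb), Mir466n (52.3 kb), Mir669o (52.8 kb) and Mir669h (56.7 kb) followed.

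The 13 members from the first one to Mir467c gave 2721 and 3203 counts, or 29.8% ± 1.65 of member counts. Those from Mir467e on, 20 genes, gave 6777 and 7131 counts, or 70.2% ± 1.67. Between them lay 26 members with 2 counts in replicate 1 and 4 in replicate 2. Of these 26, 23 had no count in either library, and the rest were Mir669a-3, Mir467b and Mir466b-3. The ends of this middle stretch are set by the detected genes on either side, so that it holds no detected gene follows from its definition.

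**Figure D2:**
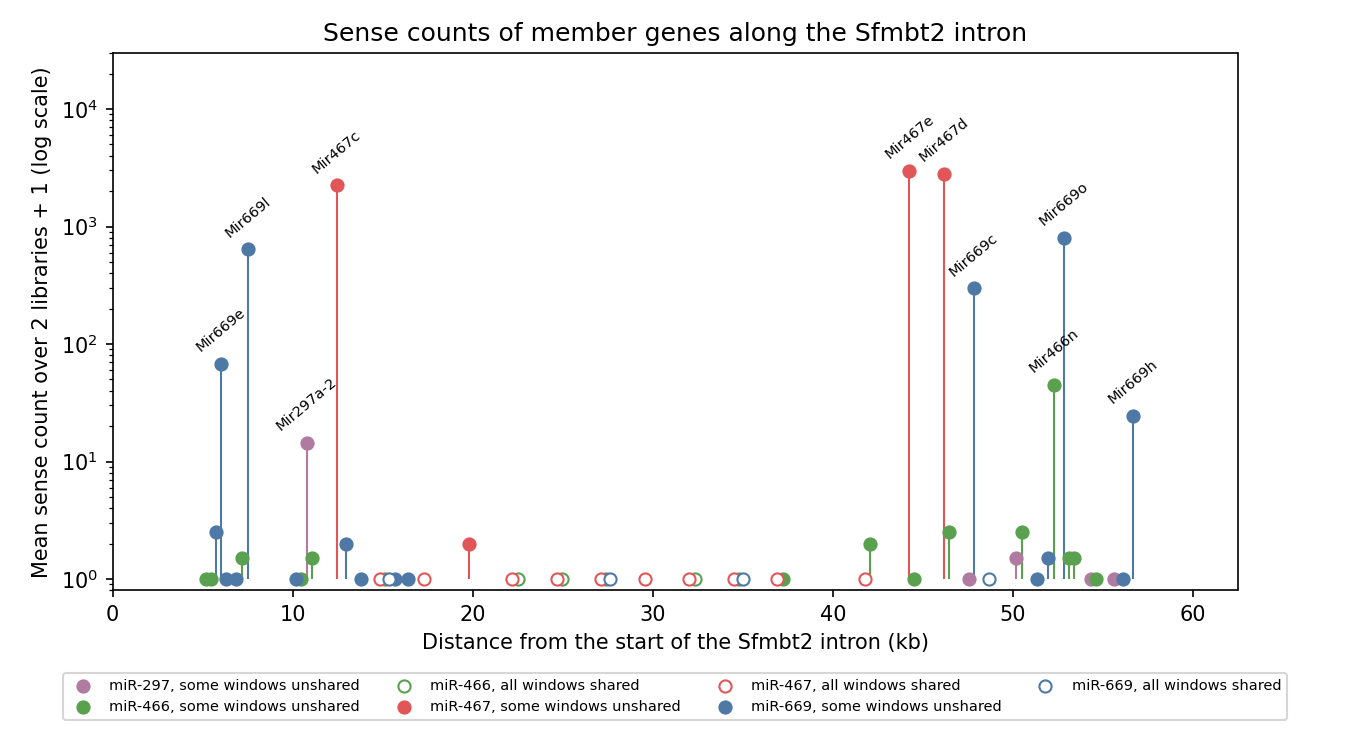
Mean sense count over both libraries plus 1 (log axis) of the 59 members inside Sfmbt2 against distance from the intron start in kb, coloured by family; open circles mark genes whose every 22-base window recurs in another miRNA hairpin. Detected genes lie at 6.02 to 12.5 kb and 44.2 to 56.7 kb, and 19 of the 26 genes between them are open circles.

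The middle stretch was also where the copies were most alike. To measure likeness, each hairpin was divided into all its windows of 22 bases, about the length of a mature miRNA, and each window was searched on both strands of every other annotated miRNA hairpin. The tables list reads that aligned to several positions in a row of their own, outside the gene rows, and these were 32.4% of the reads in replicate 1 and 33.3% in replicate 2.

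For 20 of the 69 members every window recurred elsewhere. They were the 10 Mir467a copies, 6 miR-466 genes (Mir466b-4 to Mir466b-8 and Mir466c-2) and 4 miR-669 genes (Mir669a-1, Mir669a-2, Mir669p-1 and Mir669p-2). All 20 lay inside Sfmbt2, from 14.9 to 48.7 kb, and 19 of them in the middle stretch. None of the 20 had a count in either library. Among all 1973 genes, 260 had every window in another hairpin, and 251 of those had no count. The other 9 had counts, and 5 of them were detected.

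Several of these genes were exact copies. The 10 Mir467a genes had 3 distinct hairpin sequences, 6 of them being identical to each other and 3 more likewise. Their spacing along the intron was regular, with a median of 2462 bases between neighbours and a range of 2413 to 4880. Identical pairs were Mir669p-1 with Mir669p-2, Mir466b-4 with Mir466b-6 and Mir466b-5 with Mir466b-7. In all, 17 members had a hairpin identical to that of another miRNA gene, none of them with a count, and the 69 members had 59 distinct hairpins. Where copies are identical, a table by gene cannot tell which of them was read.

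The remaining 49 members had at least 1 window of their own. All 9 detected members were among them, with 13 members below 10 counts, 26 with none, and Mir297a-2. The detected genes were not free of shared sequence. In Mir467d 60.9% of windows recurred in another hairpin, leaving 25 of 64, and in Mir467e 40.9% did, leaving 39 of 66. Mir467c shared 36.8%, Mir669l 46.8%, Mir669o 41.3% and Mir466n 41.1%. The lowest shares were 3.06% for Mir669e, 17.0% for Mir669c and 31.7% for Mir669h. Mir297a-2 shared 63.8%.

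Many members with windows of their own had few counts or none. The windows cover the whole hairpin, and no mature sequence was at hand for members inside Sfmbt2. Whether their mature sequences are shared was therefore not measured. In 25 members that did not reach 10 counts the shared portion was no higher than in Mir467d, and none of them had more than 3 counts in a library. Inside Sfmbt2 there were 15 of these. Mir466g shared no window and had 0 and 1 count, Mir466h shared 3.33% and had 0 and 1 count, and Mir669b, Mir466l and Mir669i shared 10.5%, 11.0% and 24.5% and had none. The other 10 were the members outside Sfmbt2, whose shares ran from 0% for Mir669n to 60.0% for Mir297-1 and Mir467h. In the middle stretch, the 7 genes with windows of their own still shared 60.0% to 86.8% and had at most 1 count in replicate 1 and 2 in replicate 2.

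**Figure D3:**
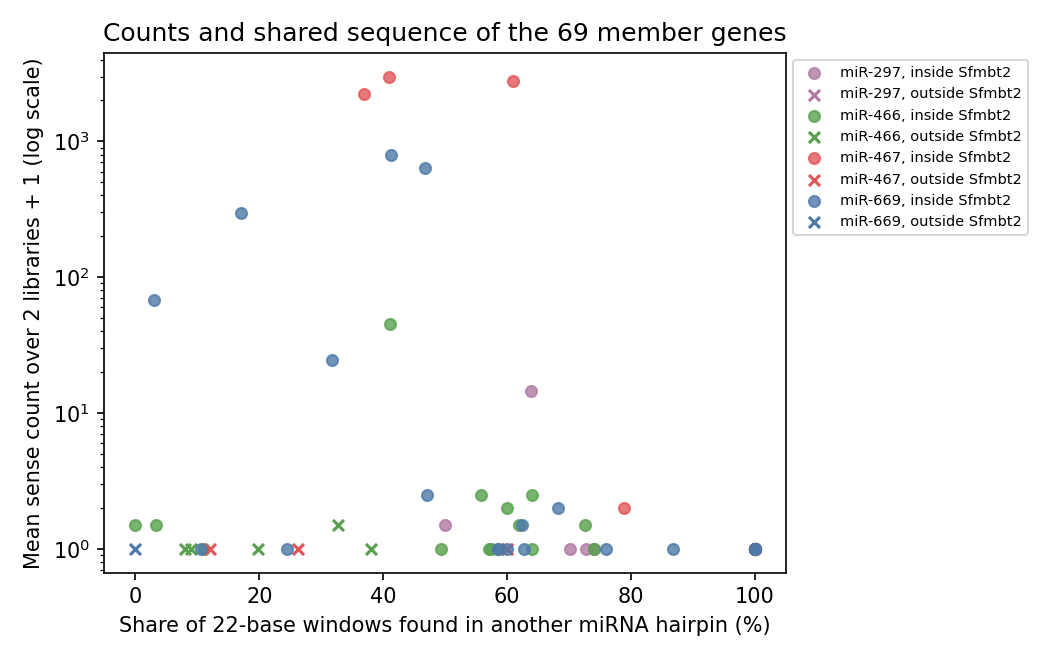
Mean sense count over both libraries plus 1 (log axis) of the 69 members against the percent of their 22-base windows found in another miRNA hairpin; circles lie inside Sfmbt2 and crosses outside. The 20 genes at 100% have no count, and up to 60.9% shared both detected genes and genes without counts occur.

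The search covered annotated hairpins and not the whole genome, so a window counted as a gene's own may still recur elsewhere, and the alignment rules are not known here. Whether the members without counts had reads among those at several positions was not tested.

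The other miRNA genes of Sfmbt2 had fewer counts than the members beside them, of which 9 of 59 were detected. Sfmbt2 holds 48 measured miRNA genes under other symbols, of which none was detected and 43 had no count, with 5 and 7 counts in all. They were set apart by symbol alone, and no family was assigned to them. Some annotated genes under other symbols are copies of members, as the Mir467a-2 hairpin stood in 7 annotated miRNA genes, 6 of them members. Every window was shared in 22 of them. Over all 1973 miRNA genes, 329 were detected (16.7%). For comparison, the Mirg cluster on chromosome 12, another imprinted miRNA cluster with many members, had 30 of 34 measured genes detected. In 2 of the 34 every window stood in another hairpin. Both of these had counts, and 1 was detected. An X-linked cluster known from testis had 0 of 18 detected, with 4 fully shared. The difference between these clusters was not tested, as genes of a cluster are not replicates.

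The libraries differ in dam, and the ratio of replicate 1 to replicate 2 asks how far the members moved between them. Library sizes were scaled with edgeR's TMM factors (a trimmed mean of log ratios over genes). With 1 library per dam there is no estimate of the spread within a litter and no p-value is given, and a gene counted as apart at 2-fold or more. Of the 10 members that reached 10 counts in either library, 2 passed that fold, while 44 of the 360 genes so filtered did (12.2%). With 10 genes this count says little about the members as a set.

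The pair went in opposite directions, and both were the lowest in count. Mir669h, with 29 and 18 counts, was 2.14-fold higher in replicate 1 (log2 ratio 1.10, exact 95% interval 0.21 to 2.05). With scaling by total counts it was at 0.88 and no longer past the fold. Mir297a-2, with 7 and 20 counts, was 2.04-fold higher in replicate 2 (-1.03, interval -2.58 to 0.21), an interval that included equality, and it stood at -0.87 with a larger prior count.

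The abundant members were within a narrow band. Mir467e had a log2 ratio of 0.34 (0.26 to 0.41), Mir467d of 0.31 (0.23 to 0.38) and Mir467c of 0.18 (0.10 to 0.27). Mir669o was at 0.53 (0.39 to 0.68), Mir669c at 0.36 (0.12 to 0.59) and Mir669l at 0.24 (0.08 to 0.41). Mir466n, at 0.29 (-0.35 to 0.93), and Mir669e, at 0.10 (-0.42 to 0.61), had intervals that included 0.

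The size of the ratios moved with the scaling. The summed member counts had a log2 ratio of 0.30 (0.26 to 0.34) with TMM and of 0.09 with scaling by total counts, as total scaling moved all genes by -0.21. With TMM 9 of 10 members were above 0, and with total scaling 7 of 10 were, with Mir467c at -0.03 and Mir669e at -0.11. The median over the 10 members was 0.30, and over all 360 genes it was -0.02.

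**Figure D4:**
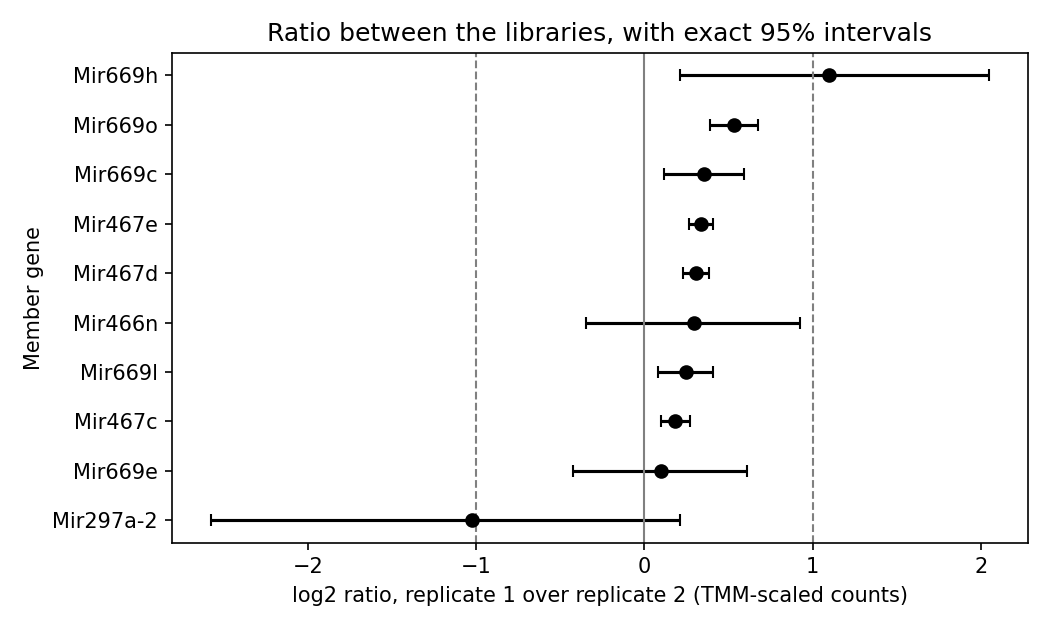
Log2 ratio of TMM-scaled counts, replicate 1 over replicate 2, for 10 members, with exact 95% intervals of counting error; dashed lines mark 2-fold either way. Mir669h and Mir297a-2 lie past the dashed lines with wide intervals, and the other 8 lie between 0.10 and 0.53.

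By family, the summed log2 ratios were 0.28 (0.24 to 0.33) for miR-467, 0.39 (0.30 to 0.49) for miR-669, 0.23 (-0.37 to 0.81) for miR-466 and -1.10 (-2.64 to 0.13) for miR-297.

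The tissue label was set against marker miRNAs beside these ratios. Neuronal markers summed to 14895 CPM in replicate 1 and 13955 in replicate 2, with 8 of 11 measured genes detected. Mir137 made up most of the sum (9594 and 9321 CPM), and single markers moved in both directions. Mir128-1 (1751 and 896) and Mir128-2 (747 and 396) were higher in replicate 1, and Mir138-1 (853 and 1372) in replicate 2. Not detected were Mir124a-2, Mir124a-3 and Mir9-2. These levels leave out reads that aligned to several positions, so a low level of a gene copy does not show that its miRNA was absent. Of the Mir290 cluster, which marks trophoblast and embryonic stem cells and thus the tissues where the Sfmbt2 cluster is known to be abundant, 6 genes were measured, none was detected, and their sum was 2.84 and 8.17 CPM, higher in replicate 2. Mir290a was at 0 in both libraries, Mir293 had 2 and 14 counts, and Mir294 had 6 and 10. The summed markers of mesenchyme (1197 and 4894 CPM, 4 of 6 detected), of sensory ganglia (2109 and 15050, 3 of 3) and of blood cells (114 and 215, 4 of 4) were also higher in replicate 2, although the blood marker Mir486 was higher in replicate 1 (17.7 and 6.26 CPM). The summed members stood at 2995 and 2816 CPM. The part of these marker differences in the ratios of the members was not tested. In a dissected tissue, fewer cells that express a miRNA and less of it per cell cannot be told apart.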

How the data were processed

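The deposited values are raw counts of reads per gene from the authors, 1 table per library, in 3 columns (either strand, sense strand and other strand) with 4 rows that name no gene. Per the labels and the text notes that accompany the deposited tables, they derive from assembly mm10 and gene annotation M4. The sources used here do not name the aligner, trimming or filters. The rows with no gene held 46.6% and 48.1% of reads and stayed out of library sizes.

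The sense column was used. Symbols, positions and hairpins came from GENCODE M21 (GRCm38), which matched 1894 of 1973 identifiers; the other 79 held 1 count in each library. The annotation names 81 member symbols, of which 12 (9 miR-669 and 3 miR-466) are not analysed here. Members and lists were chosen with earlier results of these data known. Genes named were all members that reached 10 counts in either library and, per family and side of Sfmbt2, the member with the highest count; other members are named to account for all.

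Ratios used edgeR 4.0.16 (TMM, R 4.3.3), a prior count of 0.5, and exact binomial 95% intervals from scipy 1.17.1 (Clopper-Pearson). Ratios and their intervals were tested on simulated counts with counting error only, scaled by the known library sizes. Neither TMM scaling nor spread beyond counting error was tested in this way. Window sharing was tested on a few short made-up sequences. To check for a repeated deposit of 1 library, counts were compared with sampling noise over the 329 detected genes (chi-square 318 per degree of freedom), and the libraries were counted as separate. Each dam has 1 library, which leaves edgeR's quasi-likelihood test without residual degrees of freedom, so no p-value is given. Whether differences are of litters, dissection or preparation cannot be told apart. Alternatives were DESeq2 1.42.0 and total scaling, a prior count of 2, other count minimums, either-strand reads, all reads as the denominator, leaving out a library for levels and, chosen after seeing the data, leaving out a library for detection and windows of 18, 20 and 24 bases. Python 3.11.15, numpy 2.4.6, pandas 2.3.3 and matplotlib 3.10.9 were used.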

Additional observations from a re-analysis of the deposited data

How the results depend on the processing

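Of 149 alternative values for 31 results, 15 for sets of genes and 14 for single genes moved beyond the limit set around the main value. For shares and CPM that limit was the SD over both libraries. With n = 2, leaving out a library always shifts the mean by less than this SD. Those values were bound to stay within the limit and say nothing about robustness. A turn of direction was looked for only in the ratios past 2-fold, those of Mir669h and Mir297a-2. Neither turned in the settings that kept them. Members detected rose from 9 to 23 when 1 count in either library was enough, and came to 10 without replicate 1 and to 9 without replicate 2. As a percent of all reads, unmapped and multi-position reads included, the shares were 0.153 for all members, 0.124 for miR-467, 0.0282 for miR-669 and 0.000777 for miR-466; the last was 0.00146 of counts on either strand. Members 2-fold apart numbered 1 with total scaling, 1 with a prior count of 2, 0 of 6 with at least 100 counts and 11 of 23 with at least 1 count, against 21 of 265 and 230 of 678 genes at the latter minimums. With total scaling the log2 ratio of summed member counts was 0.0889 and the members' median 0.0883, and with at least 1 count that median was 0.0645. Over all genes, 28 of the 44 past 2-fold were higher in replicate 2 (63.6%), and with total scaling 42 of 53 (79.2%). All 20 fully shared members stayed so with windows of 24 bases. At 18 and 20 bases they were bound to stay so, since each shorter window lies within a window already shared. Those widths could only have added members, and the number stayed at 20. No paired analysis was possible because the samples form 1 group. Depth limits what can be said of the 13 members with 1 to 3 counts. For the 46 with none only an upper limit on the reads assigned to them is known. That limit leaves out reads at several positions, and 20 of the 46 were fully shared.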
